A study of Homo sapiens with 4 samples.

Results

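The genes described here are 53 human genes that act in mitosis and in the passage of cells from G2 into mitosis. They were chosen by symbol, with earlier results of these data known, and fall into 8 classes by the role of their proteins. All 53 had a row in the deposited table of 48162 genes, and all 53 were among the 14923 genes with enough counts to test. RNA-seq libraries came from the human breast cancer line MDA-MB-453. Of these, 2 libraries were labelled wild type (WT) and 2 were labelled TMEM9 KD, a knockdown of TMEM9, the gene of an endosomal and lysosomal membrane protein. The labels give no treatment or time for either group, and the sources used here do not state how TMEM9 was reduced or whether the knockdown cells were pooled or cloned. Separate cultures are not stated either, so the p-values describe the spread between libraries, which may be technical.

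Entry into mitosis is driven by the kinase CDK1 bound to cyclin A or cyclin B, with Polo-like and Aurora kinases acting alongside. The spindle checkpoint holds the anaphase-promoting complex inactive until every chromosome is attached, after which cyclin B and securin are destroyed and the sister chromatids part. Most genes of this program are transcribed mainly in G2 and mitosis. In growing cells their promoters are activated by the MuvB complex with B-MYB and FOXM1, and in resting cells MuvB joins p130 and E2F4 in a repressor called DREAM. MuvB binds a DNA element named the cell cycle genes homology region (CHR), and the factor NF-Y binds CCAAT boxes. In bulk RNA, a change in the share of cells in G2 or mitosis and a change in RNA per such cell cannot be told apart.

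Values below are CPM, counts relative to a library total that was scaled by the trimmed mean of M-values (TMM), in 2 libraries per group. Library totals ran from 15323843 to 18517337 counts, and the lowest count of any of the 53 genes in a library was 250. TMEM9 itself had 74.9 and 83.3 CPM in WT and 3.11 and 4.47 CPM in TMEM9 KD, a fall of 4.37 on the log2 scale in the direction of the labels. Markers of the labelled line were only partly present. ERBB2 had a mean of 63.7 CPM in WT, but PIP had no counts in any library, and SPDEF, KRT19, TFF3 and AGR2 had means of at most 0.256 CPM in either group. Several marker lists differed between the groups. Basal epithelial markers summed to 1323 and 1343 CPM in WT and 735 and 742 CPM in TMEM9 KD, with 13 of 13 tested genes lower. The median log2 fold change of these markers was -3.54. KRT14 (12.4 and 17.1 CPM in WT) and MIR205HG (25.8 and 27.6 CPM) had no counts in TMEM9 KD. ITGA6, the largest part of the sums, fell least, by 0.23 on the log2 scale. Fibroblast markers summed to 3543 and 3581 CPM against 2436 and 2671 CPM, with 5 of 12 higher and 7 lower. Leukocyte markers summed to 207 and 205 CPM against 14.5 and 15.9 CPM, with 1 of 6 higher and 5 lower. Most of that sum was LCP1, on chromosome 13, with 186 and 184 CPM in WT and 5.86 and 6.53 CPM in TMEM9 KD, while PTPRC rose by 0.72 on the log2 scale and CD3E, MS4A1 and LYZ had no counts in any library. The mitochondrial share of counts was 3.98% in each WT library and 3.18% and 2.83% in TMEM9 KD. The part of these differences in the results on mitotic genes was not tested.

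Promoters of the genes that changed most are shown with the elements named above, where present. RefSeq promoter windows (GRCh38.p14, from 250 bases before to 50 bases after a start) were found for 45 of the 53 genes, in 58 windows, some of which overlap. Those shown are the 3 genes with the largest increases and the 3 with the largest decreases among the 45, each as the 150 bases that end just before its first listed start. Capitals mark CHR matches (TTTGAA or TTCGAA) and CCAAT boxes (CCAAT), each searched on both strands.
CDC20, higher in TMEM9 KD, chr1:43358831-43358980, plus strand: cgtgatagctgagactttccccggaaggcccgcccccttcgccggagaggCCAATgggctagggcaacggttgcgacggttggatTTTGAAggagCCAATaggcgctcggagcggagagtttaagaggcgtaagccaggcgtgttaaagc
ANLN, higher in TMEM9 KD, chr7:36389712-36389861, plus strand: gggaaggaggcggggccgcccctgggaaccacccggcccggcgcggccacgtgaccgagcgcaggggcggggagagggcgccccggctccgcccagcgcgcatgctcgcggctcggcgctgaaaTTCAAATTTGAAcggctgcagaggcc
CCNA2, higher in TMEM9 KD, chr4:121823884-121824033, minus strand: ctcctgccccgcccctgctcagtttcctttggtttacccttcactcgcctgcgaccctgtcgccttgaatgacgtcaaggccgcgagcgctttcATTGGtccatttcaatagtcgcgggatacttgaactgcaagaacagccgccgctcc
CDC25B, lower in TMEM9 KD, chr20:3786801-3786950, plus strand: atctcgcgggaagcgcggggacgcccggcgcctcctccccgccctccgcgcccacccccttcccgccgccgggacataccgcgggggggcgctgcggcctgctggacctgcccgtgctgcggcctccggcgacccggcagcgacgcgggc
CDK1, lower in TMEM9 KD, chr10:60778181-60778330, plus strand: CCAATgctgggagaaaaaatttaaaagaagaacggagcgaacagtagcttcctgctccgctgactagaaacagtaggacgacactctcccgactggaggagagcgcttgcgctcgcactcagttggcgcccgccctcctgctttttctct
TOP2A, lower in TMEM9 KD, chr17:40417897-40418046, minus strand: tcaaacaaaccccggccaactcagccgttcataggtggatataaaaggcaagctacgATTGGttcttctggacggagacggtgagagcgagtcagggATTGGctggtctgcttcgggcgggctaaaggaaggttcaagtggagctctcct
The CDC20 window held a CHR match at position -65, between CCAAT boxes at -100 and -55, counted from the first base of the match to the start. In ANLN a pair of CHR matches on opposite strands lay end to end at -26 and -20. The CCNA2 and TOP2A windows printed above held CCAAT boxes and no exact CHR match within the bases shown, CDK1 likewise, and those of CDC25B held neither. TOP2A, CDK1 and CDC25B did have a CHR match in their full windows, outside the bases shown or in another window of the gene. CCNA2 had neither TTTGAA nor TTCGAA on either strand of its window, and other spellings of the element were not searched.

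Over whole windows, a CHR match was present in 37 of 58 (63.8%) windows of the mitotic genes. It was present in 16.4% of all 35116 windows of the promoter set, which include those of the mitotic genes and were not limited to genes tested. A CCAAT box was present in 75.9% against 34.6%, and both elements in 53.4% against 6.38%. These matches are letters in a sequence, and binding was not measured. Only TTTGAA and TTCGAA were searched for the CHR, so a gene without a match may still hold another form of the element. Among the 34 mitotic genes with a CHR match, 15 were higher and 4 lower in TMEM9 KD, with a median log2 fold change of 0.18. Among the 11 without one, 5 were higher and 2 lower, with a median of 0.05. By CCAAT box the order was the opposite, with a median of 0.13 for the 38 genes with one (16 higher, 6 lower) and 0.21 for the 7 without (4 higher, 0 lower). The differences between these sets were not tested, and 57.7% of all genes tested were called. No promoter entry was found for AURKA, BIRC5, BUB3, FOXM1, RACGAP1, TPX2, TTK and UBE2C.

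Mitotic genes changed little in size, and more of those that changed were higher than lower in TMEM9 KD. By edgeR's quasi-likelihood test with Benjamini-Hochberg adjustment over all genes tested, 25 of 53 rose and 7 fell at an adjusted p below 0.05. That is 60.4% called, beside 57.7% of all genes tested and 63.1% of those that averaged 5 CPM or more, so the share called is near the background. By direction, 47.2% were higher, beside 28.7% of all genes, and 13.2% were lower, beside 29.0%. The median log2 fold change was 0.17 for the 53 genes and 0.0070 for all genes. For 43 of the mitotic genes the WT and TMEM9 KD ranges were apart, as for 77.6% of all genes tested, with 34 higher in TMEM9 KD (39.1% of all genes) and 9 lower (38.5%).

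The changes were small beside those of the other genes in this comparison. The median absolute log2 fold change was 0.21 for the mitotic genes, 0.38 for all genes tested and 0.31 for the 10824 genes that averaged 5 CPM or more. None of the 53 was called with a change of 2-fold or more, where 17.4% of all genes and 10.2% of genes with at least 5 CPM were. Only CDC20 was called at 1.5-fold or more, against 29.8% of all genes. Tested by edgeR against a change of 1.5-fold, 0 of the 53 passed, 1 did at an unadjusted p below 0.05, and 18.8% of all genes passed. Without WT replicate 1 the counts were 16 higher and 5 lower, and without WT replicate 2 they were 15 and 4. With scaling to library size only, which raised the median of all genes to 0.08, 33 were higher and 4 lower, so that 89.2% of the calls were upward in place of 78.1%. Of the 32 calls, 16 stood in all 12 alternatives other than the test against 1.5-fold. They were ANLN, AURKA, CCNA2, CDC20, CDCA8, FOXM1, GTSE1, INCENP, KIF23, MAD2L1, PLK1 and PLK4, which were higher, and CDC25B, CDK1, TOP2A and UBE2C, which were lower.

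**Figure D1:**
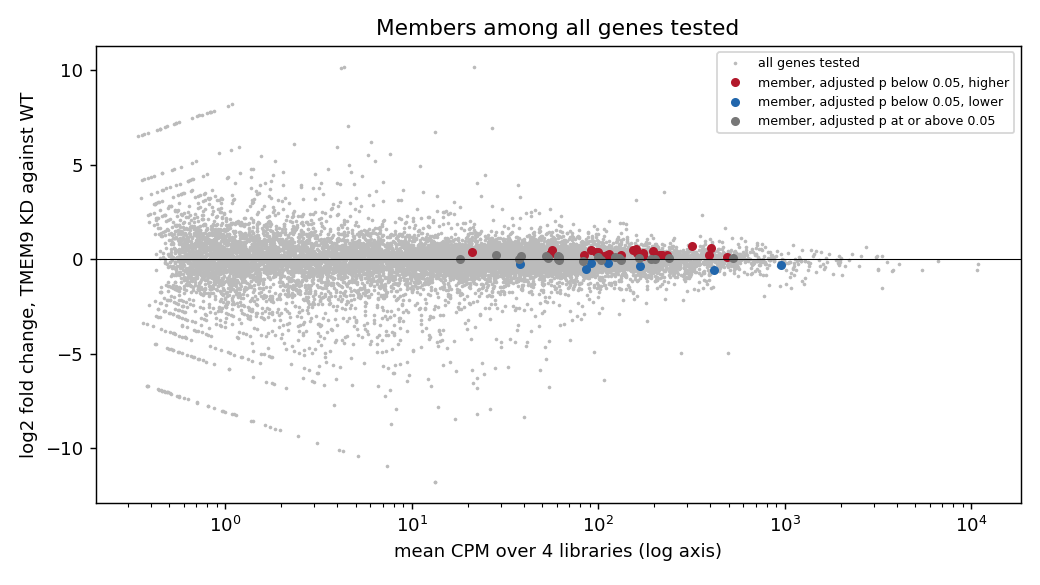
Log2 fold change (TMEM9 KD against WT, vertical axis) against mean CPM over the 4 libraries (log axis) for the 14923 genes tested (grey points) and the 53 mitotic genes (coloured by call). The mitotic genes lie between -0.57 and 0.68 while the other genes reach from -11.80 to 10.19; slanted streaks at low CPM are genes with no or few counts in 1 group.

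Among cyclins, kinases and phosphatases, 5 of 13 rose and 2 fell. Counts by class, here and below, stand beside 28.7% of all genes tested called higher and 29.0% called lower. Cyclin A2 (CCNA2), which activates CDK2 in S phase and CDK1 in G2, had 135 and 125 CPM in WT and 193 and 185 CPM in TMEM9 KD (log2 fold change 0.54, SE 0.06, edgeR adjusted p = 3.7e-12). Both knockdown libraries lay well above both wild-type libraries. CDK1, the kinase at the centre of mitotic entry, went the other way, from 193 and 187 CPM to 157 and 137 CPM (log2 fold change -0.37, SE 0.06, adjusted p = 5.7e-07). Cyclin B1 (CCNB1), the main mitotic partner of CDK1, had 473 and 459 CPM in WT and 522 and 498 CPM in TMEM9 KD, a rise of 0.13 on the log2 scale (adjusted p = 0.033). The groups did not overlap for CCNB1, but its call ended with DESeq2 (adjusted p = 0.064), with a replicate block (0.060) and without WT replicate 1 (0.23) or 2 (0.42). CCNB2 and CCNF were not called, at 0.05 and 0.13, and neither were the CDK1-binding subunits CKS1B and CKS2, at 0.11 and -0.06.

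CDC25B, a phosphatase that removes inhibitory phosphates from CDK1, fell from 495 and 506 CPM to 339 and 336 CPM (log2 fold change -0.57, SE 0.05, adjusted p = 5.9e-16). This was the largest decrease of the 53 genes. Its relative CDC25C had 17.9 and 18.8 CPM in TMEM9 KD and 18.3 and 17.8 CPM in WT, with overlapping groups and a 95% interval of -0.22 to 0.27 for the log2 fold change. PLK1, a kinase needed for centrosome maturation and mitotic exit, rose from 171 and 162 CPM to 219 and 234 CPM (0.45, SE 0.06, adjusted p = 9.3e-10). PLK4, which starts centriole duplication, had 46.6 and 48.3 CPM in WT and 70.5 and 61.1 CPM in TMEM9 KD (0.47, SE 0.08). AURKA, the Aurora kinase of centrosomes and spindle poles, rose from 147 and 139 CPM to 185 and 172 CPM (0.32, SE 0.06, adjusted p = 8.5e-06). All 3 kinases were higher in each knockdown library than in each wild-type library, as were 39.1% of all genes tested. NEK2, a centrosomal kinase, was not called, at -0.02 (95% interval -0.18 to 0.14).

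**Figure D2:**
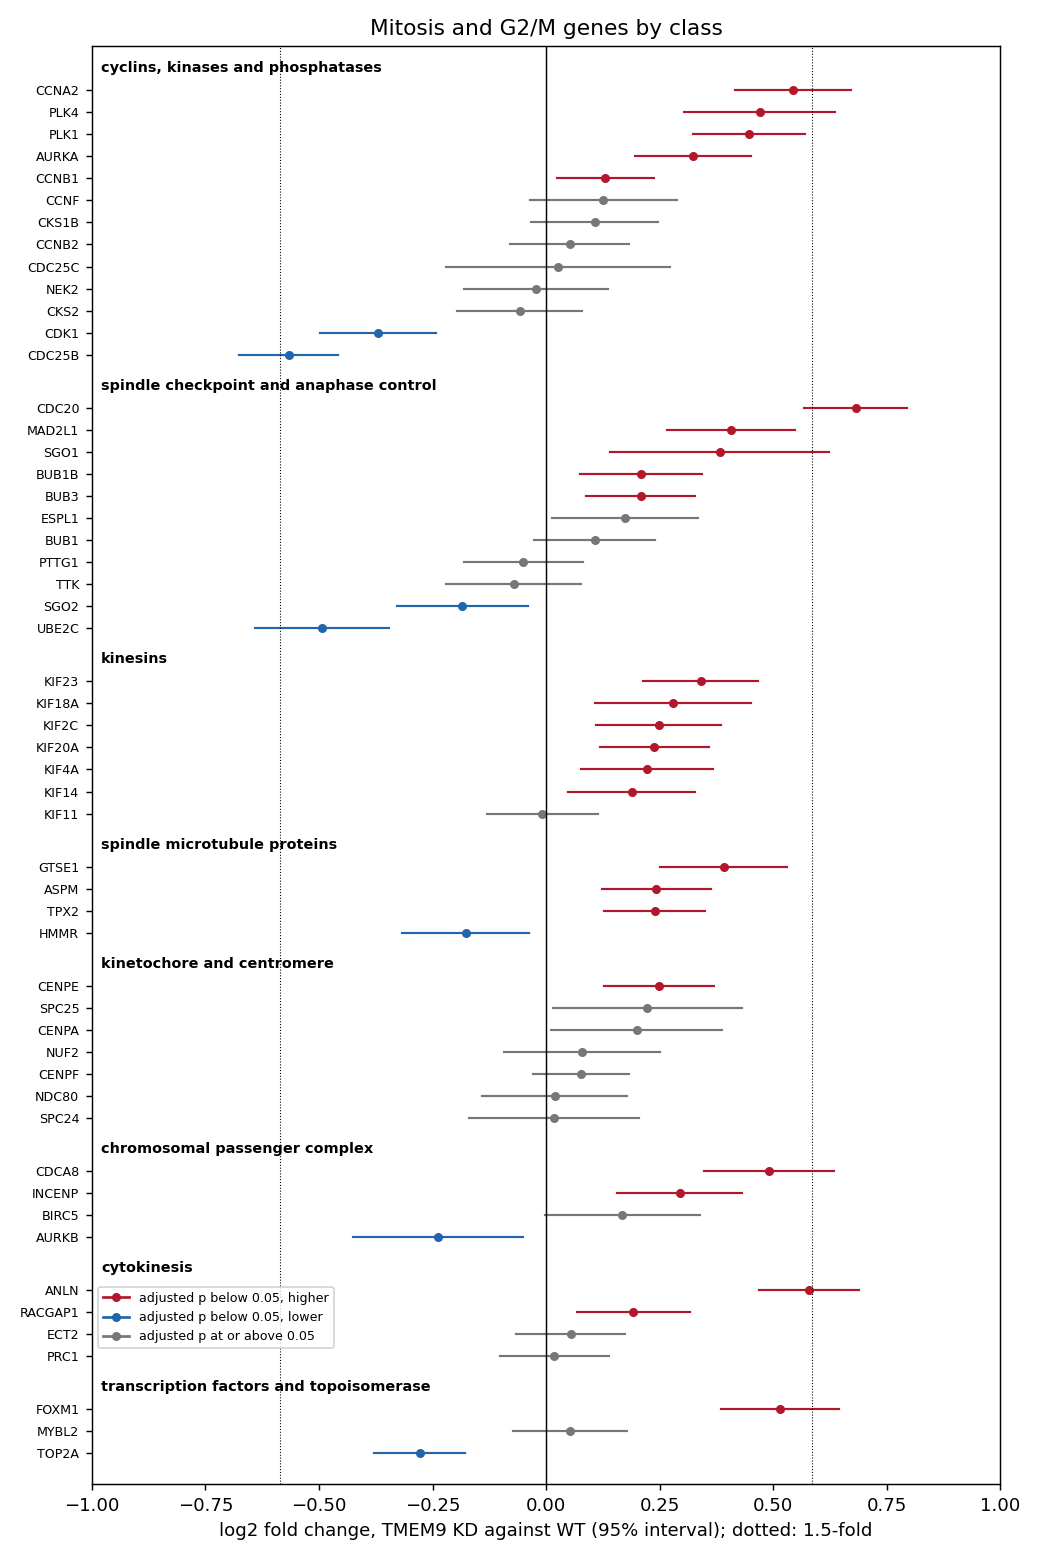
Log2 fold change of TMEM9 KD against WT (horizontal axis) with 95% intervals from the edgeR fit for each of the 53 genes, ordered by size within its class; red and blue are genes past the threshold upward and downward, and dotted lines mark 1.5-fold. The red points other than CDC20 lie between 0.13 and 0.58, the interval of CDC20 spans the 1.5-fold line, and 6 of the 7 kinetochore genes are grey.

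Genes of the spindle checkpoint and of anaphase control rose in 5 of 11 and fell in 2. Without WT replicate 1 the counts were 2 and 1, and without WT replicate 2 they were 3 and 1. CDC20, the activator of the anaphase-promoting complex that the checkpoint holds back, rose from 241 and 247 CPM to 382 and 401 CPM (log2 fold change 0.68, SE 0.06, edgeR adjusted p = 4.2e-19). It had the largest change of the 53 genes, 1.60-fold, and its knockdown libraries were far above both wild-type libraries. UBE2C, the ubiquitin-conjugating enzyme that starts ubiquitin chains for the same complex, fell from 105 and 94.7 CPM to 70.5 and 71.4 CPM (-0.49, SE 0.07, adjusted p = 1.0e-08). Its partner UBE2S, which lengthens those chains and is not among the 53 genes, rose from a mean of 240.3 ± 8.79 CPM to 385 ± 42.0 CPM (SD, n = 2; 0.68, SE 0.06). The activator and the chain-lengthening enzyme were thus higher and the chain-starting enzyme lower in the same libraries.

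MAD2L1, a checkpoint protein that captures CDC20, had 82.7 and 85.1 CPM in WT and 117 and 106 CPM in TMEM9 KD (0.41, SE 0.07, adjusted p = 6.4e-07). BUB1B and BUB3, further parts of the inhibitory complex, each rose by 0.21 on the log2 scale. Their calls ended without WT replicate 1 or 2, and that of BUB1B also without TMEM9 KD replicate 1, where its log2 fold change was 0.10. The kinases BUB1 and TTK, which recruit the checkpoint proteins to kinetochores, were not called, at 0.11 and -0.07. SGO1, a shugoshin that protects centromeric cohesin, had 16.7 and 19.7 CPM in WT and 26.4 and 21.3 CPM in TMEM9 KD (0.38, SE 0.12, adjusted p = 0.0049). The knockdown libraries of SGO1 were further apart than the nearest libraries of the 2 groups, and no call was made for it by DESeq2 (adjusted p = 0.053) or when WT replicate 1 (0.16) or TMEM9 KD replicate 1 (0.15) was left out. The related SGO2 fell by 0.18 on the log2 scale, a call that ended in 5 alternatives other than the test against 1.5-fold, among them library size only (adjusted p = 0.19). Securin (PTTG1) and separase (ESPL1), the inhibitor and the protease that opens cohesin rings, were not called, at -0.05 and 0.17.

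**Figure D3:**
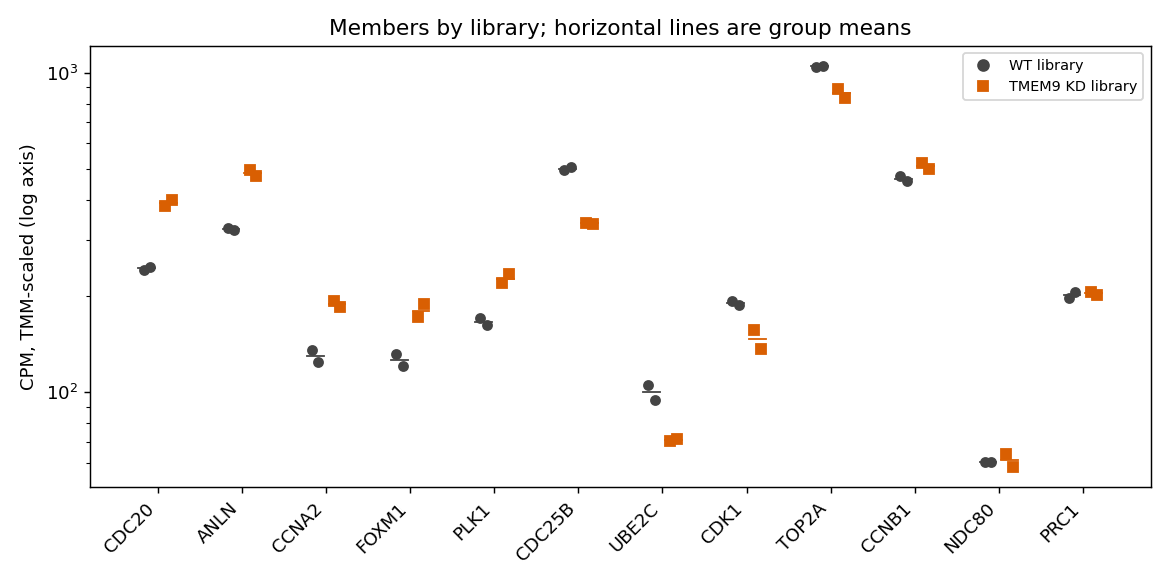
CPM (log axis) in each WT library (circles) and each TMEM9 KD library (squares) for 12 of the 53 genes, with group means as lines. CDC20, ANLN, CCNA2, FOXM1 and PLK1 are higher and CDC25B, UBE2C, CDK1 and TOP2A lower in both knockdown libraries, CCNB1 differs only slightly, and the groups overlap for NDC80 and PRC1.

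Of the 7 kinesins, motor proteins that build the spindle and move chromosomes, 6 rose and 0 fell at an adjusted p below 0.05 by edgeR. At an unadjusted p below 0.05 the count lower was also 0, and DESeq2 called 4 higher and 0 lower. Among all genes tested, edgeR called 28.7% higher and 29.0% lower. KIF23, the motor of the centralspindlin complex of the late spindle, rose from 150.3 and 155 CPM to 203 and 184 CPM (log2 fold change 0.34, SE 0.06, adjusted p = 2.5e-06). KIF20A, which carries the passenger complex to the midzone, rose from 198 and 191 CPM to 224 and 235 CPM (0.24, SE 0.06). KIF2C, which takes apart wrongly attached microtubules, rose from 103 and 101 CPM to 126 and 116 CPM (0.25, SE 0.07). For these 3 motors, each knockdown library was above each wild-type library, as for 39.1% of all genes tested.

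KIF18A, which damps chromosome movements, had 48.2 and 50.9 CPM in WT and 67.4 and 53.1 CPM in TMEM9 KD (0.28, SE 0.09, adjusted p = 0.0041). The first knockdown library stood well clear of the wild type and the second did not, and without the first the log2 fold change of KIF18A was 0.10 (adjusted p = 0.32). KIF4A and KIF14, which act in the midzone and in cytokinesis, rose by 0.22 and 0.19. KIF11, the motor that pushes spindle poles apart, was not called, at 193 and 192 CPM in WT and 196 and 186 CPM in TMEM9 KD (95% interval of the log2 fold change -0.13 to 0.11). Of the kinesin calls, 2 were left without WT replicate 1 and 2 without WT replicate 2, and KIF23 was called in each of those fits.

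All 4 spindle microtubule proteins passed the threshold, 3 of them higher, where 57.7% of all genes tested passed it. GTSE1, a protein of spindle microtubules that also restrains p53, rose from 87.1 and 85.7 CPM to 109 and 118 CPM (log2 fold change 0.39, SE 0.07, edgeR adjusted p = 1.3e-06). ASPM, which acts at spindle poles, rose from 210.0 and 194 CPM to 244 and 234 CPM (0.24, SE 0.06), with no call without WT replicate 2 (adjusted p = 0.15). TPX2, the activator of AURKA on the spindle, rose from 353 and 370.4 CPM to 437 and 416 CPM (0.24, SE 0.06), with no call without WT replicate 1 (adjusted p = 0.096). TPX2 and AURKA were thus both higher. HMMR, a spindle protein that binds hyaluronan when outside the cell, fell from 119.7 and 119 CPM to 115 and 96.7 CPM (-0.18, SE 0.07, adjusted p = 0.025). Most of that fall lay in 1 knockdown library, since without TMEM9 KD replicate 2 the log2 fold change of HMMR was -0.07 (adjusted p = 0.36). The call also ended with DESeq2 (0.086), with library size only (0.21) and without WT replicate 1 (0.18) or 2 (0.17).

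Of the 7 kinetochore genes, 1 was called higher and 0 lower by edgeR. The count higher was 4 with library size only, 2 without WT replicate 1, 0 without WT replicate 2, 2 without TMEM9 KD replicate 1 and 3 without TMEM9 KD replicate 2. The 4 subunits of the NDC80 complex, which holds microtubule ends, were not called. NDC80 had 60.5 and 60.5 CPM in WT and 64.2 and 58.4 CPM in TMEM9 KD, and its groups overlapped. NUF2, SPC24 and SPC25 had log2 fold changes of 0.08, 0.02 and 0.22, and the widest of the 4 intervals, that of SPC25, ran from 0.02 to 0.43 before adjustment. CENPA, the histone variant that marks centromeres, was not called (0.20, 95% interval 0.01 to 0.39, adjusted p = 0.065). CENPF, a large protein of the outer kinetochore, had 520 and 514 CPM in WT and 541 and 548 CPM in TMEM9 KD and was not called. CENPE, a kinesin that carries chromosomes to the metaphase plate, rose from 214 and 212 CPM to 269 and 237 CPM (0.25, SE 0.06), with no call without WT replicate 2 (adjusted p = 0.057). At an unadjusted p below 0.05, 3 of the 7 were higher and 0 lower, and DESeq2 called 1 higher and 0 lower.

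The 4 genes of the chromosomal passenger complex, which corrects attachments and then directs cytokinesis, did not move as a unit. CDCA8 (borealin) rose from 79.5 and 73.3 CPM to 106 and 109 CPM (log2 fold change 0.49, SE 0.07, edgeR adjusted p = 6.6e-09). INCENP, the scaffold that binds and activates the kinase, rose from 104 and 102 CPM to 119 and 134 CPM (0.29, SE 0.07). The kinase itself, AURKB, fell from 38.3 and 43.9 CPM to 34.9 and 35.0 CPM (-0.24, SE 0.09, adjusted p = 0.026). That fall was not called with DESeq2 (adjusted p = 0.097), with library size only (0.13) or without WT replicate 2 (0.42). BIRC5 (survivin) had 48.6 and 49.8 CPM in WT and 59.9 and 50.8 CPM in TMEM9 KD and was not called (0.17, adjusted p = 0.086). For BIRC5 the first knockdown library stood above the other three, which lay close together.

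Of the 4 genes of cytokinesis, 2 rose. ANLN (anillin), which links actin, myosin and septins in the cleavage furrow, rose from 326 and 323 CPM to 494 and 476 CPM (log2 fold change 0.58, SE 0.06, edgeR adjusted p = 2.8e-16). Its increase was second in size to that of CDC20. RACGAP1, the partner of KIF23 in centralspindlin, rose from 164 and 161 CPM to 189 and 181 CPM (0.19, SE 0.06), a call that ended without WT replicate 1 (adjusted p = 0.11) and 2 (0.19). ECT2, which activates RhoA at the furrow, and PRC1, which bundles midzone microtubules, were not called, with log2 fold changes of 0.05 and 0.02 and overlapping groups.

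FOXM1, a transcription factor of G2 genes, rose from 132 and 121 CPM to 172 and 188 CPM (log2 fold change 0.51, SE 0.07, edgeR adjusted p = 5.5e-11). MYBL2 (B-MYB), its partner on MuvB, had 158 and 167 CPM in WT and 164 and 173 CPM in TMEM9 KD. The groups of MYBL2 overlapped and it was not called (0.05, 95% interval -0.07 to 0.18). TOP2A, the topoisomerase that untangles sister chromatids, fell from 1044 and 1048 CPM to 889 and 835 CPM (-0.28, SE 0.05, adjusted p = 1.5e-06). It had the most counts of the 53 genes. Strand use in counting is not stated, and exons of FOXM1 overlap those of ITFG2 on the opposite strand, which had 9.49 CPM in WT and 14.7 CPM in TMEM9 KD on average. ANLN overlaps MATCAP2 (17.2 and 11.3 CPM) and CCNA2 overlaps EXOSC9 (57.4 and 64.4 CPM), so reads of these pairs cannot be told apart where they overlap.

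Per kilobase of annotated exon, the highest mean levels in WT were those of CCNB1 (182 CPM per kilobase), CKS2 (172), TOP2A (162) and CDC20 (119.7). The lowest were SGO1 (4.76), CDC25C (5.40) and ESPL1 (6.42). In TMEM9 KD, CCNB1 stayed highest at 199 CPM per kilobase and CDC20, at 192, came next, above CKS2 (166) and TOP2A (134). These levels rest on GENCODE 29 exon lengths, which count every annotated exon, and their order was not tested. Summed over the 53 genes, the libraries held 8509 and 8459 CPM in WT and 9320 and 9002 CPM in TMEM9 KD, so both knockdown sums were above both wild-type sums.

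The members differed between libraries of a group as well as between groups. In TMEM9 KD, 33 of the 53 genes were higher in replicate 1 than in replicate 2 (62.3%, beside 50.2% of all genes tested), with a median log2 ratio of 0.06 against 0.0011 for all genes. In WT the corresponding figures were 32 genes and a median of 0.016. The median log2 fold change of the 53 genes was 0.10 without TMEM9 KD replicate 1 and 0.20 without TMEM9 KD replicate 2, beside 0.17 with all libraries. The 21 genes that were not called had log2 fold changes from -0.07 to 0.22, with overlapping groups in 10, and the highest upper bound among their 95% intervals was 0.43, that of SPC25, or 1.35-fold.

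The median change of all genes differed between chromosomes, and the mitotic genes are spread over 19 chromosomes. On chromosome 4 the median log2 fold change of 570 genes tested was 0.26, and its 4 mitotic genes, CCNA2, PLK4, MAD2L1 and CENPE, were all called higher. With the chromosome median subtracted, CCNA2 was at 0.28, PLK4 at 0.21, MAD2L1 at 0.14 and CENPE at -0.02. PLK1, on chromosome 16 with a median of 0.18, was at 0.26. ANLN, on chromosome 7 with a median of -0.10, was at 0.68, beside 0.58 before subtraction. CDC20, on chromosome 1 with a median of -0.02, was at 0.70, beside 0.68. Both UBE2C and CDC25B lie on chromosome 20, whose median was -0.06, as do AURKA and TPX2, which rose. No mitotic gene of the list lies on chromosome 13, where the median was -0.62. Over the 53 genes the median after this subtraction was 0.12, with 37 genes above their chromosome's median. The part of chromosomes in these results was not tested.

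**Figure D4:**
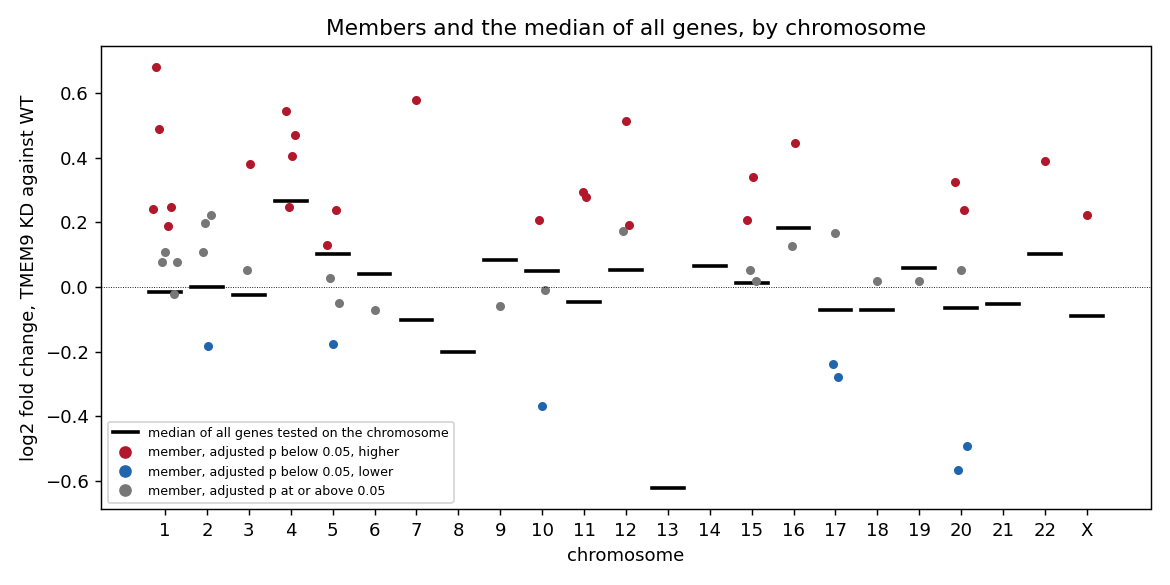
Log2 fold change of TMEM9 KD against WT (vertical axis) for each of the 53 genes (points, coloured by call) at its chromosome, with the median of all genes tested on that chromosome as a black bar. The bars of chromosomes 4 (0.26) and 13 (-0.62) stand off from 0, the chromosome 4 points surround or exceed their bar, and chromosomes 1 and 7 hold the highest points, CDC20 and ANLN.

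Further genes of the same processes, outside the 53, were read from lists grouped by complex. Among 33 other centromere and kinetochore genes, 17 rose and 2 fell, with a median log2 fold change of 0.26. CENPN, a reader of CENPA nucleosomes, had 35.2 ± 0.314 CPM in WT and 79.5 ± 6.56 CPM in TMEM9 KD (SD, n = 2) and rose by 1.18 on the log2 scale. BOD1, CENPP and CENPM rose by 0.81, 0.76 and 0.67. HJURP, the chaperone that deposits CENPA, was singled out after its values were seen and fell by 0.55 on the log2 scale. Among 21 genes of the anaphase-promoting complex and its regulators, 9 rose and 3 fell, with UBE2S at 0.68, ANAPC7 at 0.64, ANAPC2 at 0.55 and CDC16 at -0.69. CDC16 lies on chromosome 13.

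Of 16 genes that control mitotic entry, 8 rose and 3 fell. CDC25A, the family member that acts from G1 onward, rose by 0.74 and PKMYT1, a kinase that inhibits CDK1, by 0.77, so CDC25A was higher where CDC25B was lower. GADD45A, a stress-induced inhibitor of CDK1, rose by 0.85 and CCNB3 by 0.68. The checkpoint kinases CHEK1 and CHEK2, singled out in the same way, fell by 0.54 and 0.60 on the log2 scale. Among 11 genes of MuvB, DREAM and pocket proteins, 4 rose and 3 fell, with LIN52 at 0.59, LIN54 at 0.50, LIN9 at 0.41 and TFDP1, a chromosome 13 gene, at -0.61.

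Condensin and cohesin genes rose in 6 of 19 and fell in 6, from NCAPG2 at -0.92 and PDS5B, on chromosome 13, at -0.81 to CDCA5 (sororin) at 0.55 and NCAPH2 at 0.53. Of 23 other mitotic kinesins and spindle assembly genes, 9 rose and 6 fell, with TROAP at 0.53, KNSTRN at 0.45, TACC3 at 0.44 and HAUS6 at -0.62. In a list of 42 genes of S phase, the stage before, 23 rose and 5 fell with a median of 0.20, led by UNG (1.00), E2F1 (0.89), CLSPN (0.71) and CDT1 (0.70). That median lies beside 0.17 for the mitotic genes, and the difference between the lists was not tested. All these lists are to be read against the 57.7% of all genes that were called.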

How the data were processed

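RNA-seq was read from 2 WT and 2 TMEM9 KD libraries of MDA-MB-453 cells, grouped by their titles. The authors deposited raw counts per Ensembl gene, 1 column per library. Per the submitters' processing notes, the tools were CASAVA and Bowtie 0.12.2 and the builds mm8 and hg19, with no roles stated. How genes were counted, and with which annotation and strand setting, is not stated in those sources. Symbols were found for 45342 of 48162 genes, and the 2820 genes with none held at most 0.638% of a library's counts. GENCODE 29 and RefSeq, of another build than hg19, gave names, exon lengths, chromosomes and promoter sequences only.

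Counts were fitted with edgeR 4.0.16 in R 4.3.3 (TMM factors, filterByExpr with minimum count 10 and minimum total 15, quasi-likelihood F test, group as the only term, 2 residual degrees of freedom), with Benjamini-Hochberg adjustment over all 14923 genes tested. SE was taken as the size of the log2 fold change divided by the root of F, and 95% intervals use the moderated degrees of freedom. The median of these was 92.2, beside 2 residual. The p-values and SEs thus rest mostly on the spread shared over all genes, and less on that of the single gene. The fit was tested on simulated data. Libraries of a group differed by more than sampling noise (chi-square over degrees of freedom 2.04 in WT and 4.82 in TMEM9 KD) and were kept as replicates. Of 19 near-identical copies looked up (such as KIF4B and PTTG2), none had over 21 counts in a library. Alternatives used other scaling, filters and tests (DESeq2 1.42.0, limma voom with limma 3.58.1, a test against 1.5-fold), the replicate number as a block, and each library left out in turn.

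The 53 genes and the lists were chosen with earlier results of these data known. Among the 53, library values were given for 10 genes set by name and for up to 4 called genes of largest change per class. They were also given for CDC25C, KIF11, NDC80 and CENPF, which were not called and fall outside that rule. From each further list other than the markers, up to 4 called genes of largest change were named, without library values. HJURP, CHEK1 and CHEK2 were named besides these. Retinal markers were included because the series text calls the profiles retinal; 2 of 5 tested were lower and 0 higher by edgeR, and their sums were 18.4 and 18.2 CPM in WT and 10.6 and 10.5 CPM in TMEM9 KD. Of 10 tested luminal markers, 4 were higher and 4 lower.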

Additional observations from a re-analysis of the deposited data

How the results depend on the processing

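Other scaling, filters and limma voom gave 32 called mitotic genes, except library size only (37, with 4 lower and a median log2 fold change of 0.25). Library size only added calls, all upward, for CCNF, CKS1B, BUB1, ESPL1, CENPA, CENPF, SPC25 and BIRC5. It ended those of SGO2, HMMR and AURKB. Genes described above as not called are thus so in the main fit, and for some this depends on the setting. DESeq2 called 25, with 4 lower, and the test against 1.5-fold called 0 higher and 0 lower, with 2803 genes called in the whole table (1111 higher, 1692 lower). Leaving out 1 library gave 19 to 35 mitotic genes called, 15 to 30 higher and 4 to 8 lower, with medians of 0.10 to 0.20. A fit with fewer samples has fewer residual degrees of freedom, and the lone library is assumed to vary like the other group. Without a WT library the spread is that of the TMEM9 KD pair, which differed more (chi-square over degrees of freedom 4.82, against 2.04 in WT). For BUB3 the log2 fold change was then 0.21 or 0.19, beside 0.21 with all libraries, while its SE was 0.10 in place of 0.06. A call that ended without a WT library thus need not mean a smaller change. The replicate block called 31 (24 higher, 7 lower) and ended the call of CCNB1 alone (log2 fold change 0.13). Over all genes tested, deviations of same-numbered libraries had a correlation of 0.00048. With a single difference per group, that value cannot show whether same-numbered libraries were made together, which the labels do not state.

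No called gene changed direction in the 13 alternatives. Among genes not called, signs turned with library size only for NEK2 (0.052), CKS2 (0.016), TTK (0.0029), PTTG1 (0.024) and KIF11 (0.065). With a library left out, ranges that crossed 0 were CDC25C (-0.018 to 0.066), NEK2 (-0.064 to 0.0056), TTK (-0.16 to 0.012), KIF11 (-0.040 to 0.020), NDC80 (-0.045 to 0.078), NUF2 (-0.053 to 0.20), SPC24 (-0.0092 to 0.041), ECT2 (-0.013 to 0.11) and PRC1 (-0.017 to 0.043). Every member had at least 250 counts in each library, and SE was larger for genes with few counts (0.12 for CDC25C and SGO1) than for those with many (0.05 for TOP2A and CENPF). With 2 libraries a group, 95% intervals of uncalled genes reached 1.35-fold (SPC25).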
